A study of Homo sapiens with 12 samples.

Results

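The cells of a growing leukaemia must copy their genome once per division, and the genes described here encode the machinery that commits a cell to S phase and then carries out the copying. The members are 43 genes given by name as a module of E2F targets, origin licensing factors, replication fork proteins and nucleotide supply enzymes. All 43 were found in the annotation, out of 57865 genes, and all 43 were among the 15424 genes that passed the filter on low counts. They were followed through 12 RNA-seq libraries of 4 human acute myeloid leukaemia cell lines. MOLM-14 and MV4-11 are lines known to carry a KMT2A fusion and an internal tandem duplication of FLT3, OCI-AML3 is known for its NPM1 mutation, and KG-1a is an immature, poorly differentiated line. The labels give no added genetic change. Each line was treated for 12 h with DMSO, the vehicle and control, with 10 µM pioglitazone or with 10 µM darglitazone, and each line gave 1 library per treatment. A line stands for the leukaemia of 1 donor kept in culture. The line is therefore the replicate of a treatment (n = 4), and the 3 libraries of a line differ in treatment. P-values between lines thus rest on the spread left among these libraries after line and treatment are fitted. They do not rest on the spread between repeat cultures.

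As background, D-type cyclins with CDK4 or CDK6, and later E-type cyclins with CDK2, phosphorylate the retinoblastoma protein and release E2F factors, which switch on most genes of the module. Origins are licensed in G1 when ORC, CDC6 and CDT1 load the MCM2-7 helicase, and they fire when CDC45 and GINS join it into the CMG complex. At the fork, polymerases α, δ and ε, the clamp PCNA and its loader RFC make DNA from nucleotides that ribonucleotide reductase and thymidylate synthase supply, while UHRF1, CAF-1 and SLBP copy DNA methylation and provide histones. Pioglitazone and darglitazone are thiazolidinediones, known activators of the nuclear receptor PPARγ. They share the thiazolidinedione ring on a benzyl group. Pioglitazone joins it through an ether to an ethylpyridine, and darglitazone through a ketone chain to a methyl-phenyl-oxazole.

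E2F factors and the CCAAT-binding NF-Y are known regulators of S-phase promoters, so promoter windows of members were searched for their short words. RefSeq windows (GRCh38.p14) of 300 bases, from 250 before to 50 after a transcription start, matched 37 of the 43 members in 51 windows. No window was matched for CCND2, CCNE2, CDK2, E2F8, MCM4 and MCM5. An E2F word (TTTCCCGC, TTTCGCGC, TTTGCCGC or TTTGGCGC, either strand) stood in 20 of the 51 windows (39.2%), against 3.31% of all 35116 windows in the table. By gene, 19 of the 37 matched members had such a word, against 3.99% of all genes with a window. CCAAT, on either strand, stood in 30 of 51 (58.8%) against 34.6% of all windows. TTTGAA, the core of the CHR element known from mitotic genes, stood in 2 of 51 (3.92%) against 15.2%. The list was drawn partly as E2F targets, so these shares describe it and are no independent evidence. MCM6 had the most E2F words in a window (4), and MCM2, MCM3, MCM7 and E2F1 had 2 each. CCND3, CCNE1, CDK4, CDK6, RRM2 and SLBP were among the matched members with none. The 150 bases before a start are printed below for 4 members with an E2F word there, namely the factor E2F1 itself, PCNA, the sliding clamp, and MCM6 and POLA1, both of which were higher in all OCI-AML3 libraries than in any other. They are written 5′ to 3′ on the gene's strand, with E2F words and CCAAT, read on either strand, in capitals. They lie at chr20:33686386-33686535 (E2F1, minus strand), chr2:135876444-135876593 (MCM6, minus), chr20:5126623-5126772 (PCNA, minus) and chrX:24693768-24693917 (POLA1, plus). GENCODE release 29 annotates no exon in the MCM6 and POLA1 stretches, and a first exon of the gene itself over the last 19 bases for E2F1 and the last 4 for PCNA. In MCM6 a pair of E2F words overlap. These are matches of letters, not sites of binding.
E2F1: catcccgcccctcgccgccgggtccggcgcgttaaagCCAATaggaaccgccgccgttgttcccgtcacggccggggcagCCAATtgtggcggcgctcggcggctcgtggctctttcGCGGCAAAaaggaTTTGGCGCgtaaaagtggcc
MCM6: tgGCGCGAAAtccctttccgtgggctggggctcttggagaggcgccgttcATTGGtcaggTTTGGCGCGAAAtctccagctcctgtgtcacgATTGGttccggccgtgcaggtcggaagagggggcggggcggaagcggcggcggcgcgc
PCNA: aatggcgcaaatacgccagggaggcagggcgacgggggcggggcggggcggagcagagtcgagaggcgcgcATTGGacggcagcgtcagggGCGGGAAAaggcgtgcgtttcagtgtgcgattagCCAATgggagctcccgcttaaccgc
POLA1: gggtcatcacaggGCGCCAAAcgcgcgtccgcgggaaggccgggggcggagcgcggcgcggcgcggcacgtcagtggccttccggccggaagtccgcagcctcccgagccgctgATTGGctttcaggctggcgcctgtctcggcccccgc

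Total estimated counts ran from 1.1 M in the OCI-AML3 pioglitazone library to 64.24 M in the OCI-AML3 DMSO library, which is 58.6-fold deeper. In the shallowest library 3 counts, the floor used for a gene at 0, were worth 2.74 CPM, and at most 0.629 CPM in any other (counting error only). An entry in ribosomal DNA, FP671120.3, took 23.5% of all counts in KG-1a with pioglitazone and 6.17% in OCI-AML3 with pioglitazone, and 0.145% or less under DMSO. Genes specific to KG-1a (69 genes) were seen in OCI-AML3 with pioglitazone at about 2.1% of their own line's level. Genes specific to MV4-11 (6 genes) were seen in KG-1a with darglitazone at 3.94%. The MV4-11 DMSO library held genes specific to MOLM-14 (4 genes) at 2.19% and to OCI-AML3 (12 genes) at 1.51%. It was kept except where single libraries or lines were left out. The main counts and medians are given with and without 3 libraries called doubtful below, OCI-AML3 and KG-1a with pioglitazone and KG-1a with darglitazone. Printed calls lost without them are listed, and of the values that changed in size only examples are given. Markers of myeloid blasts summed to 651 to 1530 CPM in the 12 libraries, and erythroid markers to at most 0.644 CPM. Of the marker lists for other cell types, T-cell markers summed to 21.8 to 37.2 CPM in KG-1a and at most 3.99 elsewhere, B-cell markers to 8.47 to 19 CPM in KG-1a and at most 3.57 elsewhere, and epithelial markers to 51.1 to 56.9 CPM in MOLM-14, 13.4 to 17.2 in MV4-11 and at most 3.22 in the other lines. Their part in the line differences was not tested.

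Levels differed widely within the module. Compared per transcript length (TPM, mean of the 4 DMSO libraries), MCM4 was highest at 304, followed by MCM7 at 262, MCM5 at 225, PCNA at 203 and CDK4 at 200. POLA1, the catalytic subunit of polymerase α, was lowest at 9.62 TPM, with E2F2 at 9.95 and E2F8, a repressor of the E2F family, at 11.9. Ribonucleotide reductase showed the large subunit RRM1 at 109 TPM and the S-phase subunit RRM2 at 49.9. TPM are relative to all transcripts of a library, the ribosomal DNA entry included, so all other TPM of the KG-1a pioglitazone library are lowered by it. All further levels are CPM, counts relative to library size, scaled by TMM, which are compared for 1 gene across libraries and not between genes. Where 3 values of a line are listed, the first is DMSO, then pioglitazone, then darglitazone.

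Most members differed more between lines than between the libraries of a line. On the log2 scale the SD between line means was larger than the pooled SD within lines for 38 of 43 members, and for 11862 of all 15424 genes tested. The median ratio of these SDs was 1.74, close to 1.8 over all genes tested, so the members' ratio lay near that of all genes. Under DMSO the highest line was less than 2-fold above the lowest for 24 members. MCM4 had the smallest DMSO range, 1.16-fold with 558 ± 43.5 CPM (SD, n = 4), and UNG, which removes uracil from DNA, spanned 1.19-fold. CCND2 spanned 494-fold and E2F8 10.8-fold. The CCND2 fold rests on 0.658 CPM in OCI-AML3, a level near what reads of other lines would give, as described below. In the heat map of the members most rows change colour at the borders between lines.

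**Figure D1:**
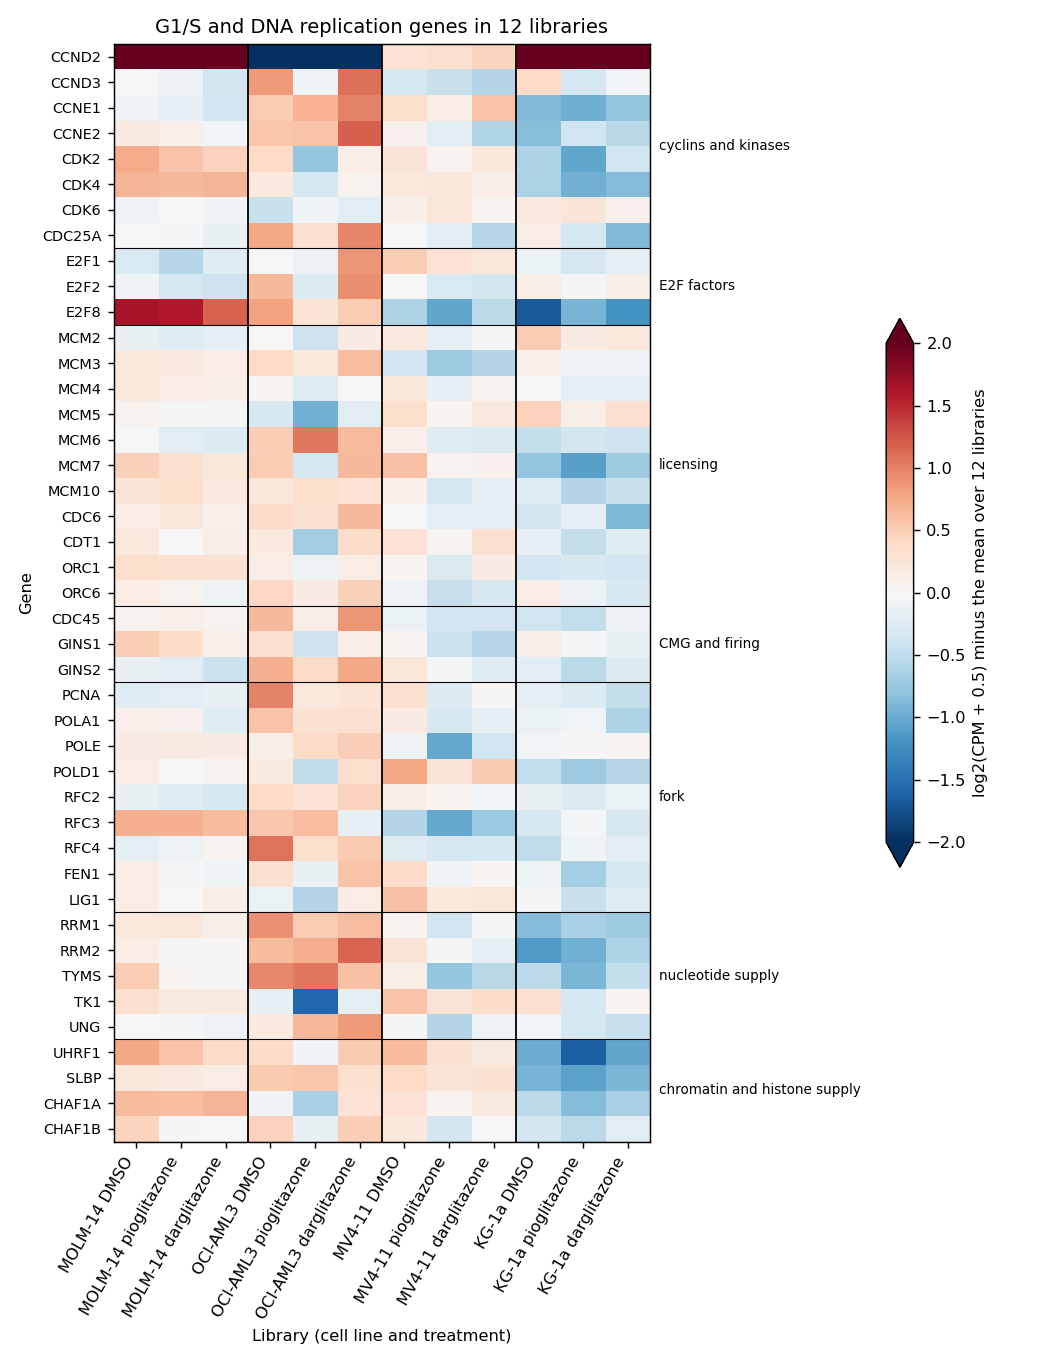
Each row is a gene of the module, grouped by role, and each column a library. Colour gives log2(CPM + 0.5) minus the gene's mean over the 12 libraries, cut at -2 and 2. CCND2 separates OCI-AML3 from the other lines, E2F8 is highest in MOLM-14, and most rows are pale or blue in KG-1a.

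Each line was compared with the mean of the other 3 by edgeR's quasi-likelihood test over all genes, with adjustment over all genes. OCI-AML3 was the high line and KG-1a the low line for these genes. In OCI-AML3, 28 of 43 members were higher and 4 lower, where 23% of all genes tested were higher and 19.4% lower. The median log2 fold change of members was 0.43, against 0.02 over all genes. In KG-1a, 26 members were lower and 4 higher, where 27.2% of all genes were lower and 26.9% higher, with a median of -0.46 against -0.03. MOLM-14 had 12 members higher and 3 lower (background 23.5% and 17.7%, median 0.12 against 0.04). With RLE size factors that split was 11 and 5. MV4-11 had 8 higher and 10 lower (background 23.3% and 17.5%, median -0.03 against 0.02). That split was 11 and 10 with RLE size factors and 12 and 10 with protein-coding nuclear genes only, so MV4-11 had no stable direction. With 1 library left out, MOLM-14 had 7 to 14 higher (7 without its pioglitazone library) and 0 to 5 lower (0 without its darglitazone library). MV4-11 then had 3 to 12 higher (3 without its DMSO library) and 4 to 12 lower (4 without its pioglitazone library). Because the libraries are bulk RNA, fewer cells in S phase and less RNA of these genes per cell cannot be told apart in any of these differences.

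Without the OCI-AML3 pioglitazone, KG-1a pioglitazone and KG-1a darglitazone libraries, OCI-AML3 had 25 members higher and 4 lower with a median of 0.58 (0.16 over all genes then tested), and KG-1a, then its DMSO library alone, had 22 lower and 1 higher with a median of -0.60 (-0.26 over all genes). Among the single calls printed below, those of MCM2, MCM5, CDK6 and PCNA in KG-1a, of E2F1 and TYMS in MV4-11 and of SLBP in MOLM-14 were then lost. Examples of values that changed in size are TK1 in OCI-AML3, then -0.45, and in KG-1a CCNE2 at -1.27, E2F8 at -2.48 and RRM2 at -1.61. Of the drug values, TYMS for the mean of both drugs was then -0.61 and CDC25A with darglitazone -0.21. Leaving out single libraries gave 20 to 27 members higher in OCI-AML3 and 21 to 29 lower in KG-1a. The 3 OCI-AML3 libraries lay above all 9 others for 14 members, and 7.95% of all genes tested did so. These were CCNE2, CDC25A, MCM6, CDC6, CDC45, GINS2, ORC6, POLA1, RFC2, RFC4, RRM1, RRM2, TYMS and UNG. The 3 KG-1a libraries lay below all 9 others for 9 members (13.5% of all genes), namely CCNE1, CDK4, MCM6, MCM7, ORC1, RRM1, RRM2, UHRF1 and SLBP. MCM6, RRM1 and RRM2 stood in both lists, with OCI-AML3 at the top and KG-1a at the bottom of the 12 libraries.

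**Figure D2:**
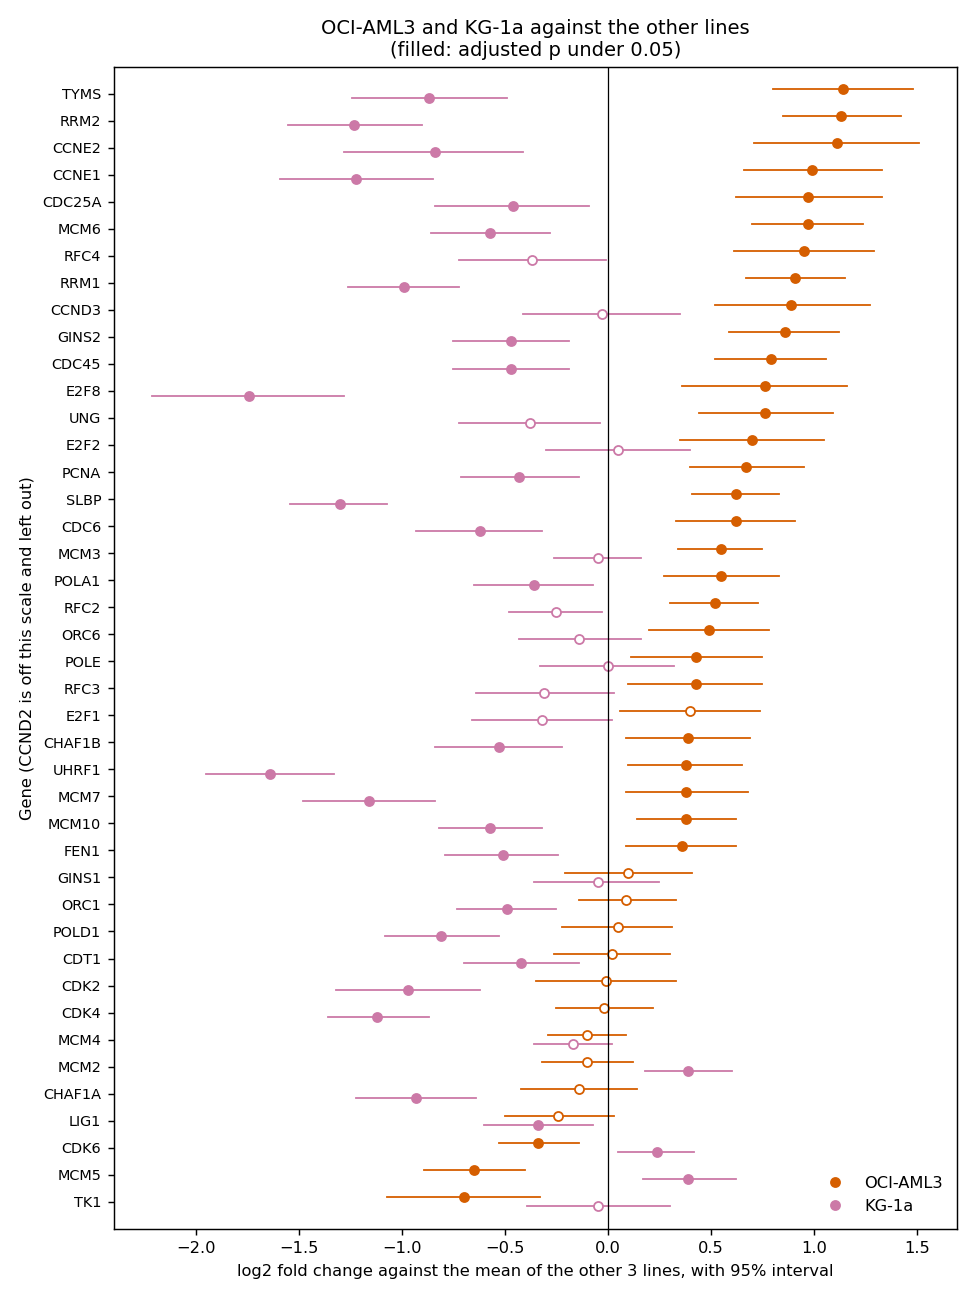
Log2 fold change of each member in OCI-AML3 and in KG-1a against the mean of the other 3 lines, with its 95% interval from the fit. Filled points passed the adjusted threshold of 0.05. TYMS at 1.14 leads OCI-AML3 and E2F8 at -1.74 is lowest in KG-1a. CCND2, at -8.14 and 3.43, is off the scale and left out.

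Among the D-type cyclins, which start the G1 kinase, CCND2 had the widest range between lines of all members. This gene (chromosome 12, 4273772 to 4305350, plus strand) measured 0.658, 4.39 and 0.38 CPM in OCI-AML3, 325, 248 and 238 in KG-1a, 319, 330 and 319 in MOLM-14 and 69.5, 72.2 and 77.5 in MV4-11. MOLM-14 and KG-1a were high, MV4-11 intermediate, and OCI-AML3 far below every other library. The log2 fold change of CCND2 was -8.14 (SE 0.39, edgeR adjusted p 2.75e-08) in OCI-AML3, 3.78 (SE 0.20, adjusted p 7.1e-08) in MOLM-14, 3.43 (SE 0.20) in KG-1a and 0.93 (SE 0.22) in MV4-11. The OCI-AML3 values also lie near what reads of other lines would give. In the pioglitazone library, the KG-1a share of 2.1% would bring 5.68 CPM of CCND2, against 4.39 measured. In the DMSO library the shares of MOLM-14, MV4-11 and KG-1a would bring 0.413, 0.359 and 0.319 CPM, against 0.658 measured. Whether OCI-AML3 cells make any CCND2 RNA was not tested. The exons of CCND2 overlap AC008012.1 on its own strand and CCND2-AS1 on the other.

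CCND3, the D cyclin typical of blood cells, was the main D cyclin of OCI-AML3. It measured 292, 155 and 347 CPM in OCI-AML3, 213, 127 and 156 in KG-1a, 162, 150 and 126 in MOLM-14 and 127, 119 and 108 in MV4-11. The OCI-AML3 DMSO and darglitazone libraries were the highest of the 12, and its pioglitazone library lay within the range of the other lines. CCND3 was higher in OCI-AML3 with a log2 fold change of 0.89 (SE 0.17, adjusted p 0.00105). This was 0.57 without the OCI-AML3 darglitazone library. In TPM, CCND3 made up 98.8% of D-cyclin transcripts in the OCI-AML3 DMSO library, 85.7% in MV4-11, 65.6% in KG-1a and 62.6% in MOLM-14. CCND1, which is no member, made up 3.04% in MOLM-14 DMSO and was listed at 0 in KG-1a DMSO, where 3 counts would be 0.344 CPM.

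**Figure D3:**
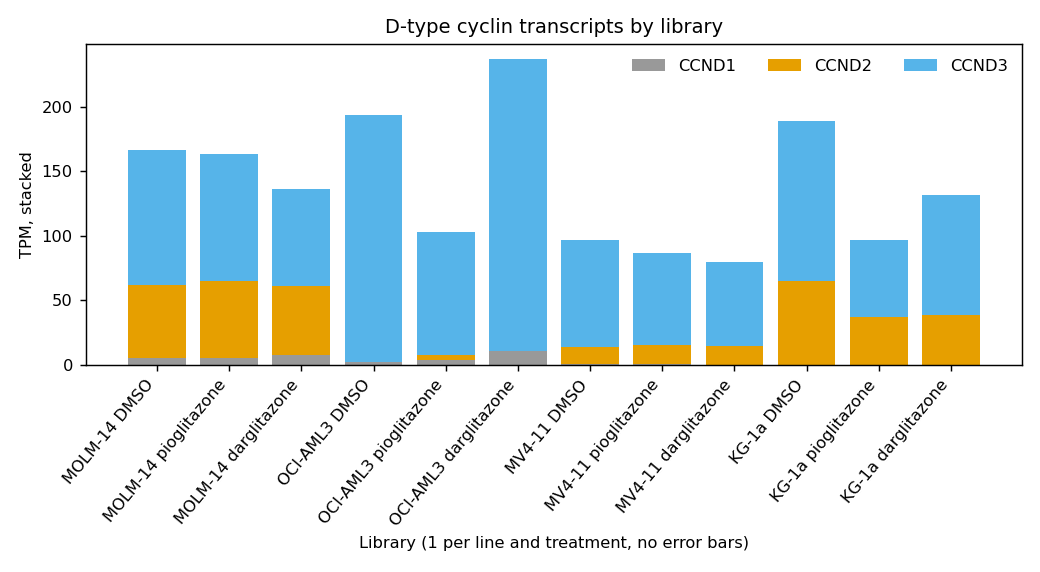
Stacked TPM of the 3 D-type cyclins in each library, 1 bar per library. CCND2 takes 34.3% of the bar in MOLM-14 DMSO and 34.4% in KG-1a DMSO but 0.107% in OCI-AML3 DMSO, where CCND3 fills nearly the whole bar.

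The kinases that D cyclins activate differed from each other. CDK4 measured 197, 135 and 180 CPM in OCI-AML3, 110, 87.6 and 93.4 in KG-1a, 275, 269 and 276 in MOLM-14 and 198, 200 and 188 in MV4-11. All MOLM-14 libraries were above, and all KG-1a libraries below, every other library. The fold changes were 0.89 (SE 0.10, adjusted p 8.37e-06) in MOLM-14 and -1.12 (SE 0.12, adjusted p 1.38e-06) in KG-1a. CDK6, the other kinase that D cyclins activate, had the narrower range of 339 to 552 CPM over the 12 libraries. It was lower in OCI-AML3 (-0.34, SE 0.09) and higher in KG-1a (0.24, SE 0.09), and the KG-1a call was kept in only 4 of 12 fits with 1 library left out. CDK2, the S-phase kinase, was higher in MOLM-14 (0.77, SE 0.14) and lower in KG-1a (-0.97, SE 0.16).

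The E-type cyclins were highest in OCI-AML3 and lowest in KG-1a. CCNE1 measured 26.9, 30.7 and 37.7 CPM in OCI-AML3, 9.96, 9.27 and 10.7 in KG-1a, 17.6, 16.7 and 14.2 in MOLM-14 and 23.9, 20.8 and 27.9 in MV4-11. KG-1a did not overlap any other line. The fold changes were 0.99 (SE 0.16, adjusted p 0.000132) in OCI-AML3, 0.49 (SE 0.15) in MV4-11 and -1.22 (SE 0.17, adjusted p 3.29e-05) in KG-1a. CCNE2 had 1.11 (SE 0.19) in OCI-AML3 and -0.84 (SE 0.21) in KG-1a.

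The 3 E2F members did not share a pattern. E2F1, the classic activator, measured 54, 50 and 100 CPM in OCI-AML3, 49.2, 42.9 and 47.1 in KG-1a, 43.8, 36.4 and 46 in MOLM-14 and 76.4, 66.6 and 64.4 in MV4-11. Its highest library was OCI-AML3 with darglitazone, and MV4-11 was the highest line under DMSO. E2F1 was higher in MV4-11 (0.45, SE 0.15, adjusted p 0.0296, kept in 9 of 12 fits with 1 library left out) and lower in MOLM-14 (-0.52, SE 0.16, adjusted p 0.0163), and its value in OCI-AML3 was 0.40 (adjusted p 0.0574). E2F8 measured 38.5, 26.3 and 31.1 CPM in OCI-AML3, 6.45, 11.2 and 9.21 in KG-1a, 69.4, 67.1 and 50.1 in MOLM-14 and 14, 10.3 and 14.8 in MV4-11. MOLM-14 lay above all others and OCI-AML3 above the remaining lines. The fold changes of E2F8 were 1.98 (SE 0.17, adjusted p 3.86e-07) in MOLM-14, 0.76 (SE 0.19) in OCI-AML3, -0.99 (SE 0.20) in MV4-11 and -1.74 (SE 0.22, adjusted p 8.21e-06) in KG-1a.

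The 11 members grouped as licensing include MCM10, which is no part of the MCM2-7 ring, beside ORC1, ORC6, CDC6, CDT1 and the MCM2-7 genes. Of these 11, 6 were higher and 1 lower in OCI-AML3, and 6 were lower and 2 higher in KG-1a, with MCM10 in both counts of 6. Over all genes tested, 23% were higher and 19.4% lower in OCI-AML3, and 27.2% lower and 26.9% higher in KG-1a. The 6 genes of the MCM2-7 ring, whose proteins assemble in equal number, did not move together. MCM6 measured 205, 302 and 225 CPM in OCI-AML3, 104, 113 and 109 in KG-1a, 145, 125 and 120 in MOLM-14 and 157, 123 and 120 in MV4-11. OCI-AML3 lay above all other libraries, with a fold change of 0.97 (SE 0.12, adjusted p 2.12e-05). MCM5 ran the other way, with 262, 168 and 280 CPM in OCI-AML3, 448, 354 and 410 in KG-1a, 342, 318 and 321 in MOLM-14 and 415, 335 and 374 in MV4-11. All OCI-AML3 libraries were below all others, with a fold change of -0.65 (SE 0.11, adjusted p 0.000364), while KG-1a had 0.39 (SE 0.11, adjusted p 0.00579). MCM7 measured 683, 378 and 758 CPM in OCI-AML3, 282, 228 and 293 in KG-1a, 670, 605 and 565 in MOLM-14 and 726, 505 and 513 in MV4-11. KG-1a lay below all other libraries, with a fold change of -1.16 (SE 0.15, adjusted p 1.75e-05). So KG-1a was low in MCM7 and MCM6 and high in MCM2 (0.39, SE 0.10) and MCM5, and MV4-11 was low in MCM3 (-0.75, SE 0.10). The MCM2 and MCM5 calls in KG-1a were each kept in 10 of 12 fits with 1 library left out.

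**Figure D4:**
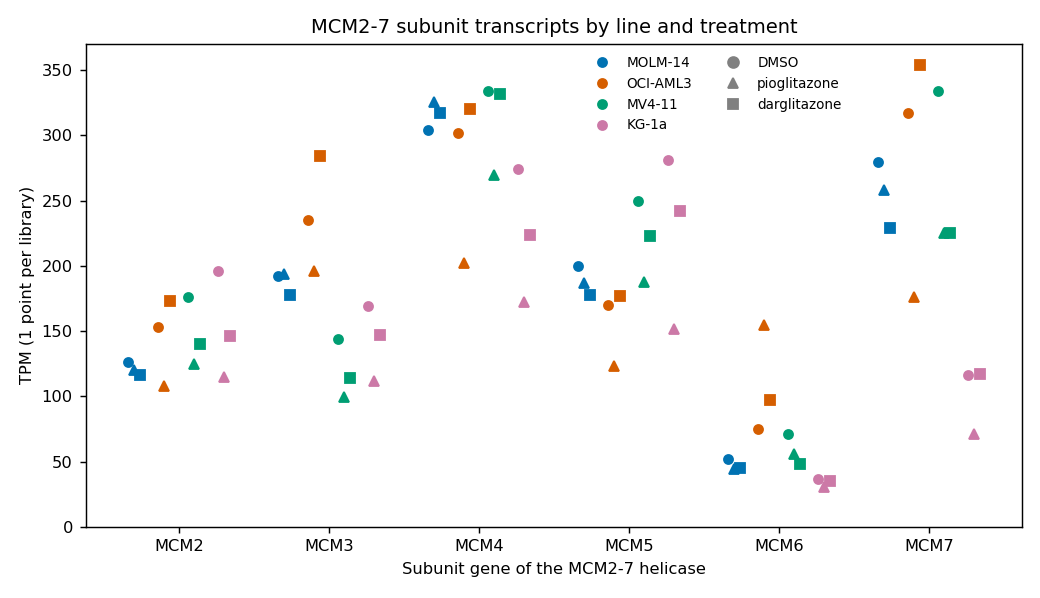
TPM of the 6 MCM2-7 subunit genes, 1 point per library, with colour for the line and shape for the treatment. MCM6 has the lowest DMSO mean of the 6 at 58.9 TPM and MCM4 the highest at 304. OCI-AML3 tops MCM6, and KG-1a sits lowest in MCM7.

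The loaders CDC6 and CDT1 differed less. CDC6 measured 88.1, 84.2 and 107 CPM in OCI-AML3, 52.4, 60.2 and 36 in KG-1a, 74.9, 79.7 and 73 in MOLM-14 and 67.9, 59.1 and 59.7 in MV4-11. OCI-AML3 was above all other libraries (0.62, SE 0.14, adjusted p 0.00199), and CDC6 was lower in KG-1a (-0.62, SE 0.14, adjusted p 0.00197). CDT1 spanned 1.37-fold between lines under DMSO, from 77.5 to 106 CPM, and was lower in KG-1a alone of the 4 contrasts (-0.42, SE 0.13, adjusted p 0.0137). CDC45 and GINS2, parts of the CMG helicase, were higher in OCI-AML3 (0.79, SE 0.13, and 0.86, SE 0.12) and lower in KG-1a (both -0.47, SE 0.13).

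Among the 9 fork members, 7 were higher in OCI-AML3 and none lower, where 23% of all genes tested were higher and 19.4% lower. In KG-1a 5 were lower and none higher, where 27.2% of all genes were lower and 26.9% higher. With 1 library left out, the OCI-AML3 calls of POLE, RFC3 and FEN1 were kept in 6, 5 and 6 of 12 fits, the others in all 12. The KG-1a calls of POLA1 and LIG1 were kept in 6 and 7 of 12 fits, the others in at least 10. PCNA, the sliding clamp, measured 384, 224 and 233 CPM in OCI-AML3, 168, 159 and 139 in KG-1a, 163, 166 and 173 in MOLM-14 and 242, 160 and 195 in MV4-11. The OCI-AML3 DMSO library stood far above the other 11, and the MV4-11 DMSO library exceeded both drug libraries of OCI-AML3. PCNA was higher in OCI-AML3 (0.67, SE 0.13, adjusted p 0.000672) and lower in KG-1a (-0.43, SE 0.14, adjusted p 0.0153). The clamp loader subunits diverged between lines. RFC3 measured 60.5, 64.1 and 37 CPM in OCI-AML3, 32.8, 40.9 and 33.1 in KG-1a, 68.5, 68.4 and 64.8 in MOLM-14 and 27.6, 20.2 and 24.6 in MV4-11. MV4-11 lay below and MOLM-14 above all other libraries, with fold changes of -1.04 (SE 0.16) and 0.92 (SE 0.14). RFC4 was higher in OCI-AML3 (0.95, SE 0.16), and it shares exon positions with EIF4A2 on the opposite strand. Polymerases also split in MV4-11, where POLD1, the δ catalytic subunit, was higher (0.68, SE 0.12) and POLE, the ε catalytic subunit, lower (-0.64, SE 0.16). The POLE value was -0.39, no longer past the threshold, without the MV4-11 pioglitazone library.

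The 5 members grouped as nucleotide supply were RRM1, RRM2, TYMS, TK1 and UNG. UNG is counted with them, although it removes uracil from DNA and does not make nucleotides. Of these 5, 4 were higher, UNG among them (0.76), and 1 lower in OCI-AML3 (median 0.91). In KG-1a 3 were lower and 0 higher (median -0.87). The shares over all genes tested were 23% higher and 19.4% lower in OCI-AML3, and 27.2% lower and 26.9% higher in KG-1a. RRM2 measured 112, 119 and 161 CPM in OCI-AML3, 32.5, 36.7 and 46.5 in KG-1a, 79.6, 69.6 and 73.4 in MOLM-14 and 86.2, 71 and 63.7 in MV4-11. The fold changes were 1.13 (SE 0.13, adjusted p 1.04e-05) in OCI-AML3 and -1.23 (SE 0.15, adjusted p 8.11e-06) in KG-1a. TYMS, which makes thymidylate, measured 54.2, 57.9 and 41.9 CPM in OCI-AML3, 19, 14.5 and 19.7 in KG-1a, 39.4, 28.4 and 27.2 in MOLM-14 and 30.5, 15.9 and 18.7 in MV4-11. It had 1.14 (SE 0.16, adjusted p 4.91e-05) in OCI-AML3, -0.51 (SE 0.17) in MV4-11 and -0.87 (SE 0.18) in KG-1a. TK1, which salvages thymidine, was the exception. It measured 62.1, 22.8 and 61.7 CPM in OCI-AML3, 87.9, 54.2 and 72 in KG-1a, 87.3, 79.3 and 79 in MOLM-14 and 104, 83.9 and 90 in MV4-11, and was lower in OCI-AML3 (-0.70, SE 0.17, adjusted p 0.0044). TYMS and RRM2 have named pseudogenes, as do PCNA, CCND2, CCND3, CDK4, RFC3, UNG and FEN1. TYMS overlaps ENOSF1 on the opposite strand, and RRM2 and POLD1 each overlap another annotated gene on their own strand. Reads of such genes may be divided among copies or overlapping genes.

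The chromatin members were lower in KG-1a without exception, 4 of 4, where 27.2% of all genes tested were lower. UHRF1, which guides maintenance of DNA methylation, measured 287, 213 and 320 CPM in OCI-AML3, 112, 71.8 and 108 in KG-1a, 380, 331 and 292 in MOLM-14 and 346, 274 and 251 in MV4-11. The KG-1a values were under those of every other library, with a fold change of -1.64 (SE 0.14, adjusted p 2.31e-07). SLBP, the histone stem-loop binding protein, measured 111, 113 and 96.3 CPM in OCI-AML3, 40.4, 36.3 and 40.8 in KG-1a, 90, 88.3 and 85.6 in MOLM-14 and 102, 92.4 and 95 in MV4-11. Its libraries varied little within a line, and KG-1a had -1.30 (SE 0.11, adjusted p 1.3e-07). SLBP also passed the test in MOLM-14 (0.26, adjusted p 0.0481), a call kept in 3 of 12 fits with 1 library left out. CHAF1A, the large CAF-1 subunit, was higher in MOLM-14 (0.85, SE 0.12) and lower in KG-1a (-0.93, SE 0.13).

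The drug comparisons asked whether either thiazolidinedione altered the module. By edgeR's test, 0 of 43 members passed the adjusted threshold in any of the 4 treatment contrasts (pioglitazone, darglitazone, the mean of both, and one drug against the other), as did 0 of all 15424 genes (background 0% in each). Before adjustment, 322 genes were higher and 597 lower with pioglitazone at p under 0.05, and 271 and 254 with darglitazone. DESeq2 called 56 genes for pioglitazone and 6 for darglitazone and limma-voom 0 and 6, and neither called a member. The values were nonetheless mostly below DMSO. With pioglitazone, 39 of 43 log2 fold changes were negative, where 8252 of all 15424 genes tested were. The member median was -0.21, against -0.02 over all genes tested. At an unadjusted p under 0.05, 16 members were lower and 0 higher, and 3.87% of all genes were lower at that level. With darglitazone, 32 were negative (7552 of all 15424 genes) with a median of -0.10 (0.01 over all genes). Of the members, 4 were lower at an unadjusted p under 0.05 (1.65% of all genes). Without the 3 doubtful libraries, 40 members were negative with pioglitazone, with a median of -0.18 and 2 lower at an unadjusted p under 0.05, and 37 with darglitazone, with a median of -0.14 and 6 lower. Over the 19847 genes then tested, 10610 and 10836 were negative. The medians were -0.02 and -0.03, with 256 and 574 genes lower at that level. Both drugs were compared with the same DMSO libraries.

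The 6 members with the smallest p for pioglitazone were FEN1, TK1, CHAF1B, MCM7, MCM5 and MCM2, with edgeR adjusted p of 0.724 for FEN1 and 0.735 for TK1, CHAF1B, MCM7 and MCM5. FEN1, the flap endonuclease of Okazaki fragments, measured 135, 98.3 and 161 CPM in OCI-AML3, 102, 67.2 and 84.8 in KG-1a, 120, 107 and 102 in MOLM-14 and 142, 103 and 111 in MV4-11. The pioglitazone library was below the DMSO library in 4 of 4 lines, and OCI-AML3 with darglitazone was the highest of all. The log2 fold change was -0.41 (SE 0.13, 95% interval -0.69 to -0.12). FEN1 shares exon positions with FADS2 on its own strand. TK1 had -0.52 (SE 0.17), MCM7 and CHAF1B -0.44 (SE 0.15), MCM5 -0.33 (SE 0.12) and MCM2 -0.31. CHAF1B, the mid-size CAF-1 subunit, overlaps MORC3 on its own strand. With pioglitazone represented by MOLM-14 and MV4-11 alone, the values were -0.24 for FEN1, -0.21 for TK1, -0.22 for MCM7, -0.18 for MCM5, -0.22 for MCM2 and -0.41 for CHAF1B. The median over members was then -0.17.

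For darglitazone the smallest p belonged to POLA1 (-0.35, SE 0.14), GINS1 (-0.37, SE 0.15), TYMS (-0.41, SE 0.17), PCNA (-0.32, SE 0.14), CDC25A (-0.36, SE 0.18) and ORC6 (-0.21, SE 0.14). All 6 had an edgeR adjusted p of 1. POLA1 measured 60.2, 50 and 50.3 CPM in OCI-AML3, 36.8, 38.7 and 25.8 in KG-1a, 43.2, 42.7 and 33.8 in MOLM-14 and 45.1, 32.1 and 36 in MV4-11. GINS1, a subunit of the GINS complex, measured 38.8, 22.8 and 33.7 CPM in OCI-AML3, 33.8, 29.7 and 27.6 in KG-1a, 43.1, 39.9 and 33 in MOLM-14 and 31.5, 22.6 and 20.6 in MV4-11. For both genes the darglitazone library was below DMSO in 4 of 4 lines. The PCNA value rested largely on OCI-AML3, where DMSO was 384 and darglitazone 233 CPM, while MOLM-14 had 163 and 173, and it was -0.17 without the OCI-AML3 DMSO library. CDC25A, a phosphatase that activates CDK2, measured 57.4 CPM under DMSO and 27.8 with darglitazone in KG-1a, and 88.5 and 102 in OCI-AML3, and its value was -0.18 without the KG-1a libraries. For the mean of both drugs, 38 members were negative with a median of -0.16. Of all 15424 genes tested, 7964 were negative, with a median of -0.01. The smallest member p belonged to TYMS (-0.43, SE 0.15, edgeR adjusted p 0.93), PCNA (-0.34, SE 0.12, and -0.20 without the OCI-AML3 DMSO library) and GINS1 (-0.35, SE 0.13).

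Within single lines there is 1 library per treatment and no test, and the log2 ratios below use a prior count of 2. With both drugs the largest number of members below DMSO was in MV4-11. The ratios of both drugs in that line rest on its DMSO library, which held genes specific to MOLM-14 at 2.19% of their own line's level. The effect of this on the ratios was not tested. With pioglitazone, 40 members were lower in MV4-11 (51.2% of all genes were), 34 in MOLM-14 (50.9%), 31 in OCI-AML3 (62.5%) and 31 in KG-1a (47.8%). The member medians, in that order, were -0.32, -0.08, -0.42 and -0.21. The OCI-AML3 median has to be read against an all-gene median of -0.20 in that library, and was -0.22 when all libraries were thinned to the shallowest. Lower in all 4 lines with pioglitazone were 22 members, and 10.7% of all genes. With darglitazone, 38 members were lower in MV4-11 (47% of all genes were), 36 in MOLM-14 (49.4%), 14 in OCI-AML3 (51.8%) and 25 in KG-1a (48.9%). The medians in the same order were -0.23, -0.09, 0.14 and -0.07, and 4 members (7.12% of all genes) were lower in all 4 lines. Without the filter on low counts, 13 members were lower in all 4 lines. OCI-AML3 was the line in which the members' darglitazone values mostly lay above DMSO.

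**Figure D5:**
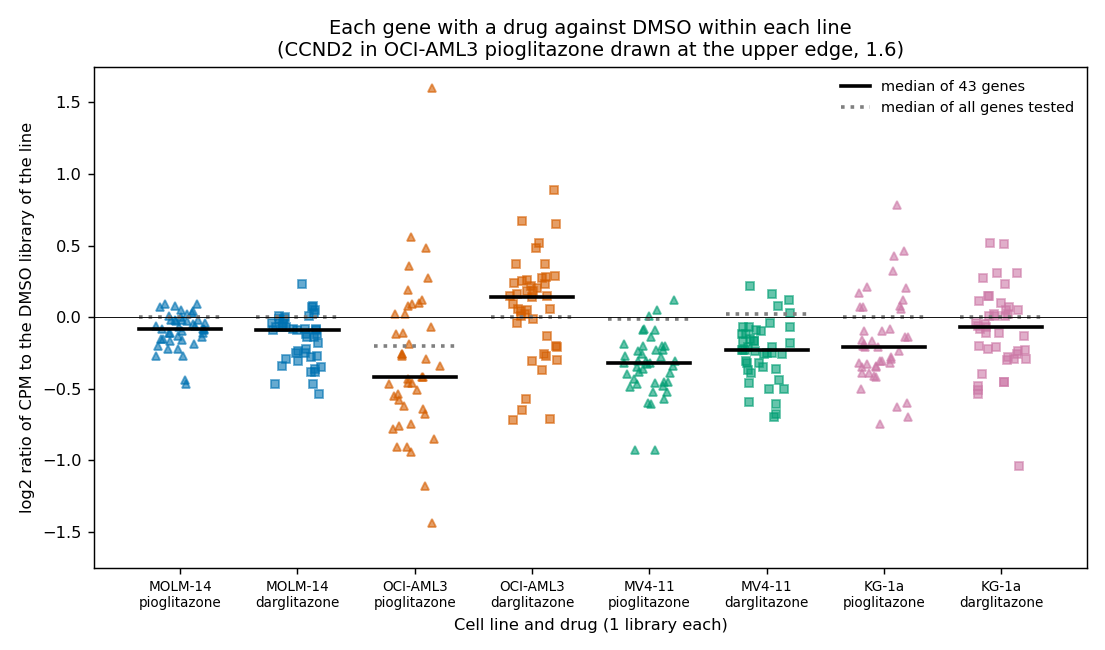
Each point is 1 member's log2 ratio of CPM in a drug library to the DMSO library of its line, with triangles for pioglitazone and squares for darglitazone. Solid bars are member medians and dotted bars medians of all genes tested. MV4-11 sits below 0 with both drugs (medians -0.32 and -0.23), and OCI-AML3 sits above 0 with darglitazone (0.14).

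The OCI-AML3 darglitazone library held members on both sides of DMSO. E2F1 stood at 54 CPM with DMSO and 100 with darglitazone, CCNE2 at 34.6 and 54.3, UNG at 82 and 130, and RRM2 at 112 and 161. All of these were higher with the drug. PCNA stood at 384 and 233, RFC3 at 60.5 and 37, and RFC4 at 69.2 and 46.7, lower with the drug. Of the 11 licensing members, 10 were higher and 1 lower. The 38 replication genes outside the module, described further on, lay the other way in this library, with 30 lower and 8 higher (median -0.29). A model with a term for line by drug called 1 gene of 15424 (0.00648%) and 0 members, and its smallest member p-values were 0.0768 for UNG and 0.0794 for RFC4 (edgeR adjusted p 1 for both). That term takes both drugs as 1 level, because 1 library per line and treatment leaves no residual degrees of freedom for each drug. A response of 1 line to 1 drug, such as that of OCI-AML3 to darglitazone, was therefore not tested.

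The drugs were compared directly at the same dose and time, the 1 pair of compounds in the series. Darglitazone values were above pioglitazone values for 32 of 43 members and for 8488 of all 15424 genes tested. The median log2 difference was 0.12 for members, against 0.03 over all genes. At an unadjusted p under 0.05, 4 members were higher with darglitazone and 0 lower, and 2.09% of all genes were higher. CDT1, the licensing factor, measured 100, 53.5 and 113 CPM in OCI-AML3, 77.5, 62.1 and 73.9 in KG-1a, 101, 87 and 95.8 in MOLM-14 and 106, 90.5 and 109 in MV4-11. Its darglitazone library exceeded the pioglitazone library in 4 of 4 lines, by the most in OCI-AML3. The difference for CDT1 was 0.39 (SE 0.14, 95% interval 0.10 to 0.69, edgeR adjusted p 0.98), for POLD1 0.32, for CHAF1A 0.31, for MCM5 0.27, for E2F1 0.36 and for MCM7 0.32. With pioglitazone again represented by MOLM-14 and MV4-11 alone, the median difference was 0.04, with 0.20 for CDT1, 0.19 for POLD1, 0.11 for CHAF1A, 0.09 for MCM5, 0.26 for E2F1 and 0.06 for MCM7. Without the OCI-AML3 darglitazone library the E2F1 difference was 0.13, and without all OCI-AML3 libraries the differences were 0.22 for CDT1, 0.15 for POLD1, 0.13 for CHAF1A and MCM5 and 0.10 for MCM7. No member separated the ketone-linked oxazole compound from the ether-linked pyridine compound past the threshold. The 95% intervals allow sizeable differences for single genes, such as -0.57 to 0.14 for RFC3 and -0.25 to 0.21 for SLBP, so the test does not show that the drugs act alike.

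Other cell-cycle genes were described from 3 lists that share no gene with the module. The lists were chosen with earlier results of these data known, so they are no independent evidence. Of 38 further replication genes, such as POLD2 and RPA1, 30 had negative values with pioglitazone and 31 with darglitazone, with medians of -0.14 and -0.11. Of 24 tested G1/S regulators outside the module, such as CDKN1A, RB1 and MYC, 15 and 13 were negative, with medians of -0.04 and -0.02. All 25 G2 and mitosis genes were negative with each drug, with medians of -0.43 and -0.38, against -0.21 and -0.10 for the module. Of all 15424 genes tested, 8252 were negative with pioglitazone and 7552 with darglitazone. By edgeR's test 0 of the genes of these lists passed the adjusted threshold, and at an unadjusted p under 0.05 the G2 and mitosis list had 13 lower with pioglitazone and 14 with darglitazone. Within lines, the pioglitazone median of that list was -1.21 in OCI-AML3, the shallowest library, and -0.59 in MV4-11, but -0.03 in MOLM-14 and -0.01 in KG-1a. With darglitazone the medians were -0.99, -0.32, -0.20 and -0.08 in the same order. Without the 3 doubtful libraries the list's medians were -0.42 and -0.55, with 6 and 23 genes lower at an unadjusted p under 0.05, and those of the 38 replication genes -0.16 and -0.19. Over all genes, 3.87% and 1.65% were lower at that level in the full fit, and 256 and 574 of 19847 without those libraries. By line, 24 of the 38 replication genes were lower and 3 higher in KG-1a. In OCI-AML3 19 were higher and 0 lower, the same order of lines as in the module. In KG-1a 20 of the 25 G2 and mitosis genes were also lower and 0 higher. That list had no single high line, with 10 higher and 0 lower in both OCI-AML3 (median 0.32) and MOLM-14 (0.40). In MV4-11 it had 4 higher and 2 lower (-0.07). Over all genes tested, 27.2% were lower and 26.9% higher in KG-1a, and 23% higher and 19.4% lower in OCI-AML3. The shares were 23.5% higher and 17.7% lower in MOLM-14 and 23.3% and 17.5% in MV4-11. CDKN1A, the CDK inhibitor p21, measured 351, 297 and 674 CPM in OCI-AML3, 154, 149 and 143 in MOLM-14, 60.4, 84.1 and 48.5 in MV4-11 and 1.47, 0.403 and 6.49 in KG-1a. The KG-1a darglitazone library held genes specific to MV4-11 at 3.94% of their own line's level, to MOLM-14 at 0.947% and to OCI-AML3 at 0.531%. How much of its 6.49 CPM came from reads of those lines was not tested. CDKN2A, the gene of p16, was at or below 0.0857 CPM in MOLM-14 and between 18.4 and 69 in the other lines.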

How the data were processed

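RNA-seq of 12 libraries (4 lines, 3 treatments) was used, made from total RNA with ribosomal RNA removed and a stranded kit, per the labels' protocols. The authors deposited estimated counts per transcript, with no normalization, and 89.8% of the values are not whole (tolerance 1e-06). The submitters' processing notes name fastp, FastQC, STAR, featureCounts, DESeq2 and GRCh38. The tool behind the estimated counts, the annotation release and the strand setting are not given in the sources used here.

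Transcripts were matched to GENCODE release 29 without version numbers (202941 of 203027), summed over 57865 genes and rounded. edgeR 4.0.16 (R 4.3.3, limma 3.58.1) kept genes by filterByExpr with line as group (minimum count 10, minimum total 15), scaled by TMM, and fitted line plus treatment by robust quasi-likelihood over all 12 libraries, with 6 residual degrees of freedom (3 with line by drug). P-values were Benjamini-Hochberg adjusted over 15424 genes, with a threshold of 0.05. Within-line log2 ratios used a prior count of 2. TPM were computed from the estimated counts and transcript lengths. The fit was tested on simulated data.

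The line is the replicate block by design, since each line gave 1 library per treatment. Deviations of libraries of the same line correlated at 0.6 to 0.85 over 12 pairs, and those of different lines at -0.53 to -0.04 over 54 pairs. Alternatives were RLE size factors, no filter, DESeq2 1.42.0, limma-voom, scaling on protein-coding nuclear genes, thinning to the shallowest library, no replicate block, and leaving out libraries or lines. Leaving out 3 doubtful libraries together was chosen after seeing the data. Named in full were, for each drug contrast, the 6 members with the smallest p, for each line contrast up to 4 highest and 4 lowest members past the threshold, and 14 members fixed by role. Other members named were chosen after their values were seen. The members and lists were chosen with earlier results of these data known.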

Additional observations from a re-analysis of the deposited data

Results flagged for a closer look

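Of 131 sets of 4 log2 values, 1 per line (each member under each treatment, and the member median for each drug), 7 held a library whose gap to the nearest other, divided by the range, exceeded Dixon's critical value. Chance gives about 1 in 20 groups. The OCI-AML3 pioglitazone library, the shallowest, held 3 of them, with MCM5 at 168 CPM (others 318 to 354), MCM6 at 302 (others 113 to 125) and PCNA at 224 (others 159 to 166). The OCI-AML3 darglitazone library held MCM6 at 225 CPM (others 109 to 120) and GINS2 at 82.9 (others 35.7 to 40.5). In KG-1a, MCM7 was 282 CPM under DMSO (others 670 to 726) and SLBP was 40.8 CPM with darglitazone (others 85.6 to 96.3).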

How the results depend on the processing

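No named member's value in a called contrast changed direction under the alternatives run. The MV4-11 member median, near 0 (-0.03), turned to 0.01 without the MOLM-14 pioglitazone library or with protein-coding genes only and to 0.02 without the 3 doubtful libraries, and its counts turned from 8 higher and 10 lower to 11 and 10 with RLE or DESeq2. For named members, 794 of 874 values in line contrasts stayed past the threshold and 80 did not, and all 596 values in drug contrasts stayed short of it. Where a count changed, the cause was not tested.

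Genes called for pioglitazone, darglitazone, darglitazone against pioglitazone, the mean of both, and line by drug (0, 0, 0, 0 and 1 by edgeR) were 223, 76, 88, 148 and 124 without the filter and 56, 6, 12, 44 and 65 by DESeq2. By limma-voom, darglitazone had 6, the mean 1 and line by drug 11. Protein-coding scaling gave 0 for line by drug. After thinning, pioglitazone had 13, one drug against the other 1, the mean 2 and line by drug 3. Thinning left 5238 genes called for KG-1a (8335 unthinned), 4274 for OCI-AML3 (6529), 3852 for MOLM-14 (6352) and 3858 for MV4-11 (6302).

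Members lower in MOLM-14 (3) were 5 with RLE, protein-coding scaling, thinning or without the 3 doubtful libraries, 6 by DESeq2 and limma-voom, and 1 without the filter. Members higher in KG-1a (4) were 1 without the filter or those libraries, whose removal gave a KG-1a median of -0.60. Thinning left MV4-11 with 5 higher and 5 lower. The OCI-AML3 pioglitazone median within the line (-0.42) was -0.67 without the filter, -0.27 with protein-coding scaling and -0.22 thinned. Members lower in all 4 lines with darglitazone (4) were 13 without the filter.

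Leaving out 1 library or line called 0 to 14 genes for pioglitazone (14 without the MOLM-14 pioglitazone library), 0 to 3 for darglitazone, 0 to 4 between drugs, 0 to 3 for the mean and 0 to 22 for line by drug, and 0 members throughout. Medians ran from -0.29 to -0.17, -0.17 to -0.06, 0.05 to 0.17 and -0.19 to -0.15 for the first 4. MOLM-14 had 7 to 14 members higher and 0 to 5 lower, OCI-AML3 20 to 27 and 3 to 6, MV4-11 3 to 12 and 4 to 12, and KG-1a 1 to 4 and 21 to 29. The KG-1a count of 1 higher came without its DMSO or its pioglitazone library. Line by drug could not be fitted without a DMSO library. With no replicate block, 0 members were called and the medians were -0.23, -0.11, 0.13 and -0.18. The depth of the OCI-AML3 pioglitazone library, 1.1 M counts, limits every value that rests on it.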

Other observations

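In the OCI-AML3 darglitazone library the cell-cycle lists differed from the module. All 25 G2 and mitosis genes were lower than under DMSO, with a median log2 ratio of -0.99, while 29 of the 43 members were higher, with a median of 0.14. Of the replication genes outside the module, 30 of 38 were lower (median -0.29), as were 14 of 24 G1/S regulators (median -0.17). With pioglitazone the G2 and mitosis median in that line was -1.21 and the module's -0.42. These are ratios of single libraries with no test. PRIM1, the primase subunit that starts each new DNA strand, was at 4.19 CPM in KG-1a under DMSO, against 36.6 in MOLM-14, 45.7 in OCI-AML3 and 33.1 in MV4-11.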
